A study of Mus musculus with 2 samples.

Results

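Killer cell lectin-like receptors are surface receptors of natural killer (NK) cells and of some T cells, encoded by a cluster of genes on mouse chromosome 6 called the NK gene complex. The family was taken here as every row of the deposited expression table whose platform gene symbol starts with Klra, Klrb, Klrc, Klrd, Klre, Klrg, Klrh, Klri or Klrk, which gave 28 of 65956 rows. Of these, 24 named 1 gene and 4 named several, and no row carried a symbol starting with Klrh. The rows came from 2 whole-transcript microarrays of Vγ6 γδ T cells, which arise in the thymus around birth, carry the Vγ6 receptor chain and can make interleukin 17. These cells were sorted from the thymus of C57BL/6 mice at 0 days of age. 1 array held cells of wild-type (WT) mice, and 1 array held cells of mice without MHC class II (MHC class II KO, called the KO array below), which shows peptides to CD4 T cells. Which class II gene was disrupted, and whether animals were pooled, is not in the labels. Since each group had 1 array, nothing below could be checked in replicates or tested, and the differences describe these 2 arrays.

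NK receptors of this family weigh activating against inhibitory signals. The Klra genes encode the Ly49 receptors, most of which read classical MHC class I. Klrd1 encodes CD94, which pairs with the NKG2 proteins of the Klrc genes to read the class Ib molecule Qa-1. Klrk1 encodes NKG2D, a receptor for stress ligands. The Klrb genes encode the NKR-P1 receptors, which bind Clr proteins, C-type lectins whose Clec2 genes lie between the Klrb genes. γδ T cells can carry several of these receptors, and the arrays show which of their transcripts were measurable in perinatal Vγ6 cells.

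A row counted as above background when its log2 signal was over 5.94 (WT) or 5.86 (KO), the 95th percentile of 1228 olfactory receptor rows on each. Of the 28 family rows 8 were above background on at least 1 array, against 48.9% of all 32750 rows with a gene symbol. They were 5 of 6 Klrb rows, the only Klrd row, 1 of 12 Klra rows and 1 of 2 Klri rows. None of the 3 Klrc rows, the 2 Klrg rows, the Klre row or the Klrk row was above background on either array. These calls depend on the limit. With the 90th percentile in its place 12 family rows were above background, which added Klrb1a and Klrk1 on both arrays, Klrc1 on the KO array alone and Klrg1 on the WT array alone. All 16 marker genes of Vγ6 and interleukin 17 γδ T cells with a row were above background on both arrays. Cd3e had log2 signals of 16.90 (WT) and 16.87 (KO), and Tcrg-V6, the Vγ6 gene, had 12.64 and 12.33. Of the 16, 1 was at least 2-fold higher on the KO array and 2 lower, where 0.825% and 0.793% of all 16009 rows above background were. Of 7 Vγ5 cell markers 5 were above background, among them Tcrg-V5, the Vγ5 gene, at 8.39 and 8.10. Of these 5, 2 were at least 2-fold higher on the KO array and none lower, against the same 0.825% and 0.793%. They were Ccr10, with a log2 difference of 1.87, and Tbx21, with 1.17. The other 3, Tcrg-V5 included, had differences below 0. The part of such cells in the family signals was not tested.

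**Figure D1:**
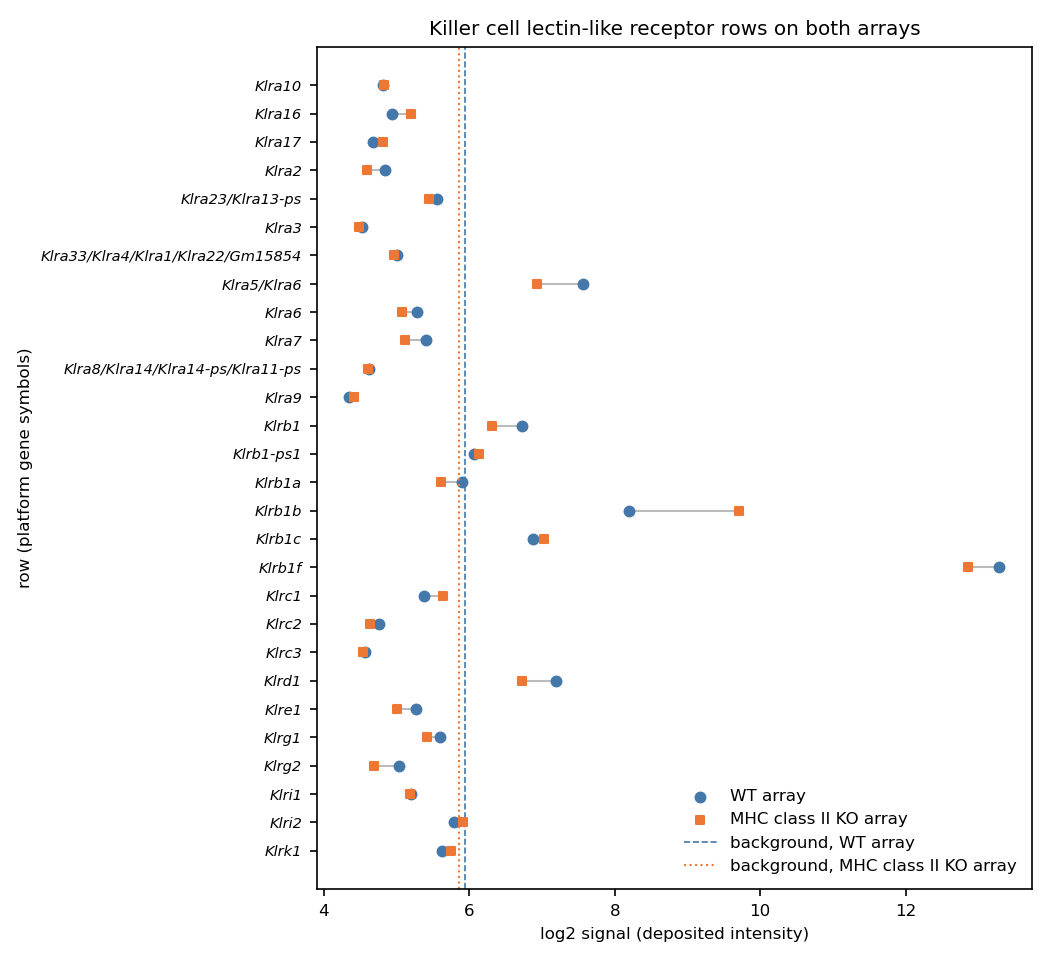
Log2 signal of each of the 28 family rows on the WT array (circles) and the KO array (squares), with the background of each array as a vertical line. Klrb1f lies far to the right of the background on both arrays, and Klrb1b shows the widest gap between the arrays. In 20 rows each point lies to the left of the line of its own array.

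Most of the rows above background were Klrb rows, and the sequence just before the start of 3 of these genes is shown. They are the Klrb genes with the letters GGTGTGG in that sequence. Klrb1b was higher on the KO array, and Klrb1f and Klrb1 were lower. Klrb1c, also above background, lacks these letters there and is not shown. The windows are the 250 bases upstream of the RefSeq start in build GRCm38.p6, each on the strand of its gene. Klrb1b lies at chr6:128826316-128826565 on the minus strand, Klrb1f at chr6:129045651-129045900 on the plus strand and Klrb1 at chr6:128723098-128723347 on the minus strand. In Klrb1b and Klrb1f the capitals mark the longest stretch that both windows share, and in Klrb1 they mark the letters GGTGTGG, which that stretch also holds.
Klrb1b: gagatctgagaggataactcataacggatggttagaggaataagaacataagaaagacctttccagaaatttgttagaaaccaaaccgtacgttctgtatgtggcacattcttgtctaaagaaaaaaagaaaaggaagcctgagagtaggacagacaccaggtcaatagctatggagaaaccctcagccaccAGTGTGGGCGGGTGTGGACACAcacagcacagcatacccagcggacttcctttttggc
Klrb1f: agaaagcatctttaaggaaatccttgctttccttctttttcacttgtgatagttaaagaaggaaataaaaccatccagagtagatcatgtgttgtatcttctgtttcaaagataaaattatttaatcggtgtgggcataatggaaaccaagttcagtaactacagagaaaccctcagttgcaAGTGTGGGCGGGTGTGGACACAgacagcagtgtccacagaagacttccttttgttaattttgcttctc
Klrb1: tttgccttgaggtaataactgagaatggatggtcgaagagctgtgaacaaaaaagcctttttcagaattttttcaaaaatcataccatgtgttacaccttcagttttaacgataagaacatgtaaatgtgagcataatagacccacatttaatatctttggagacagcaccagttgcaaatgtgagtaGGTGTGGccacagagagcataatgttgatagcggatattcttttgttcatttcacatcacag

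The shared stretch is 22 bases long and begins at position -58 in Klrb1b and -68 in Klrb1f, counted from -1 just before the start. It was found, on either strand, in the windows of these 2 genes alone among 32851 windows of 27025 genes. Sharing was not particular to this pair. Klrb1a and Klrb1c shared a longer stretch of 41 bases, which was not searched in the other windows. GGTGTGG, searched on both strands, was in 6.52% of all windows and in 5 of 28 family windows. These 5 belong to 4 of 23 family genes, the fourth being Klrg2. Klrb1b and Klrb1f were certain to be among the 4, since their shared stretch holds these letters. The shared letters describe these windows only, and the signals of Klrb1b and Klrb1f differed in opposite directions between the arrays.

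Klrb1f encodes NKR-P1F, a receptor for the Clr-g protein. Its signal was 10028 (WT) and 7462 (KO), log2 signals of 13.29 and 12.87. On the WT array it lay 7.35 above background on the log2 scale. The log2 difference, MHC class II KO minus WT throughout, was -0.43, so the KO array was 1.34-fold lower. Klrb1f was thus well above background in both samples.

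Klrb1b encodes the inhibitory receptor NKR-P1B, which binds Clr-b. Its signal was 293.5 on the WT array and 835.4 on the KO array, log2 signals of 8.20 and 9.71. The KO array was higher by a log2 difference of 1.51, or 2.85-fold. Both values lay above background, so this fold is not a bound. It was the only family row at least 2-fold higher, 1 of 8, where 0.825% of the 16009 rows with a gene symbol above background on at least 1 array were. Among these 16009 rows, 22 had a difference at least as high, Klrb1b included. Within 0.5 of its mean log2 signal of 8.95 there were 2168 rows, and 6 of them had such a difference.

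The other Klrb rows lay nearer to background. Klrb1c encodes NK1.1, an activating receptor and the classical NK cell marker of C57BL/6 mice. Its log2 signal was 6.87 (WT) and 7.03 (KO), a difference of 0.16. Klrb1, the gene for the inhibitory receptor NKR-P1G, had 6.73 and 6.31, a difference of -0.41. Klrb1-ps1, a pseudogene, had 6.07 and 6.13, just inside the background limit, with a difference of 0.06. Klrb1a, which encodes the activating receptor NKR-P1A, had 5.91 and 5.61, just outside the limit on both arrays. Of the 5 Klrb rows above background, 3 had differences above 0 and 2 below 0, and Klrb1b alone was at least 1.5-fold higher, as were 3.97% of all 16009 rows.

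Klrd1, the gene for CD94, had log2 signals of 7.19 (WT) and 6.72 (KO). The log2 difference was -0.47, or 1.38-fold lower on the KO array. The genes for its NKG2 partners were not above background. Klrc1, which encodes the inhibitory NKG2A, had log2 signals of 5.38 and 5.64, Klrc2 (NKG2C) had 4.76 and 4.63, and Klrc3 (NKG2E) had 4.57 and 4.54. Klrc2 and Klrc3 are close copies, and 1 pair of their upstream windows was identical at 95.6% of 250 positions. Signals of such copies are uncertain, since probes may not tell them apart.

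Among the Ly49 genes the row above background was the row that names both Klra5 and Klra6. Klra5 encodes Ly49E, an inhibitory receptor known from fetal NK cells, and Klra6 encodes Ly49F. The shared row had log2 signals of 7.56 (WT) and 6.94 (KO), a difference of -0.63, or 1.54-fold lower. It was the only family row at least 1.5-fold lower, 1 of 8, where 2.81% of all 16009 rows were. None of the 8 was at least 2-fold lower, where 0.793% of all rows were. A second row that names Klra6 alone was not above background, with 5.28 and 5.07.

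The other Ly49 rows were below background on both arrays. Counting the Klra6 row, 11 Klra rows were, with log2 signals between 4.35 and 5.56 (WT) and between 4.41 and 5.45 (KO). They include Klra7 (Ly49G), the row shared by Klra4 and Klra1 (Ly49D and Ly49A), Klra3 (Ly49C) and Klra9 (Ly49I), as well as the row led by Klra8, the gene for Ly49H, which recognises a cytomegalovirus protein. No fold is given for them. Ly49 genes are alike in sequence, 4 of the 12 Klra rows name several of them, and the strains of mice differ in the set they carry.

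Klri2, which encodes a receptor chain that pairs with the product of Klre1, was above background on the KO array alone. Its log2 signal was 5.80 (WT) and 5.92 (KO). The background of the WT array was higher than its MHC class II KO value, so no fold can be given. Klri1 had 5.20 and 5.18 and Klre1 had 5.26 and 5.01. Klrk1, the NKG2D gene, had 5.63 and 5.75, and Klrg1, the gene for an inhibitory receptor of cadherins, had 5.60 and 5.41. Klrg2 had 5.04 and 4.69. These 5 rows were below background on both arrays. The gene that RefSeq calls Klrh1 stands under an older symbol on the platform and so is no member of the family as chosen here. Its log2 signals were 4.37 and 4.33.

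**Figure D2:**
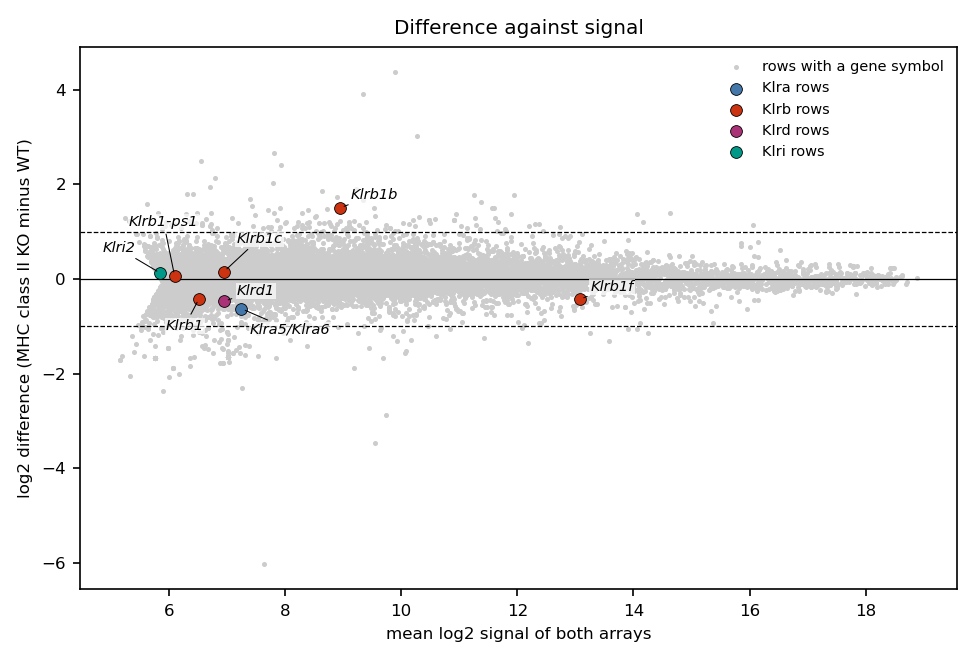
Log2 difference (MHC class II KO minus WT) against the mean log2 signal of both arrays for the 16009 rows with a gene symbol above background on at least 1 array (grey) and the 8 family rows among them (coloured by subfamily), with dashed lines at 2-fold. Klrb1b is the only family row outside the dashed lines.

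Of the 8 family rows above background, 4 had differences above 0 and 4 below 0, where 56.2% of all such rows were above 0. Over the 7 rows above background on both arrays the median difference was -0.41, beside 0.04 over the 15107 rows with a gene symbol above background on both. The median depended on where background was set. With the 90th percentile of olfactory receptor rows as background it was -0.11, and with the 99th percentile it was 0.54 and rested on Klrb1f and Klrb1b alone. Over rows with 1 gene symbol, which leaves out the Klra5 and Klra6 row, it was -0.18.

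Of the ligand genes of the NKR-P1 receptors, Clec2d and Clec2i were at least 1.5-fold higher on the KO array and none was 1.5-fold lower. Over all 16009 rows, 3.97% were higher by that fold and 2.81% lower. Of the 7 Clec2 genes listed, 5 were above background on at least 1 array, 3 of them (Clec2d, Clec2i and Clec2g) on both. Those 3 had differences above 0, as did 56.2% of all 16009 rows. Clec2j and Clec2f also had measured values above 0, but they passed background only on the array where they were high. The median of the 5 was 0.53, beside 0.04 over all 16009 rows. It is the measured value of Clec2j and not a bound. Clec2e and Clec2h were below background on both arrays. Clec2d encodes Clr-b, the ligand of NKR-P1B. It had log2 signals of 8.34 (WT) and 9.36 (KO), a difference of 1.02, or 2.03-fold. After quantile normalization this was 0.97 and after a loess correction 0.99, just under 2-fold. Clec2i encodes Clr-g, the ligand of NKR-P1F. It had 10.60 and 11.24, a difference of 0.64, or 1.56-fold. Klrb1b and Clec2d, a receptor and its ligand, were thus both higher on the KO array, while Klrb1f and Clec2i differed in opposite directions. Clec2g had 6.57 and 7.04. Clec2j and Clec2f were above background on the KO array alone. They were at least 1.20-fold and at least 1.09-fold higher there.

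These receptor and ligand genes lie side by side in the NK gene complex. Between Klrb1a and Klra2 RefSeq places 92 genes, of which 60 had a row of their own, 21 of them family members. Of the 39 others, 18 were above background on at least 1 array. Of these 18, 1 (Clec2d) was at least 2-fold higher and none lower, where 0.825% and 0.793% of all 16009 rows were. The 18 had 12 differences above 0 and 6 below, where 56.2% of all 16009 rows were above 0. The predicted genes Gm24712, Gm23552 and Gm24072 carry identical values, and counted once they leave 10 above 0 and 6 below. The genes next to Klrb1b in this order did not share its difference. Klrb1c on the side of Klrb1a differed by 0.16 and the gene BC035044 on the other side by -0.51, with log2 signals of 8.18 and 7.67. Cd69, the activation marker encoded in the same complex, had 15.23 and 14.86, a difference of -0.37.

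**Figure D3:**
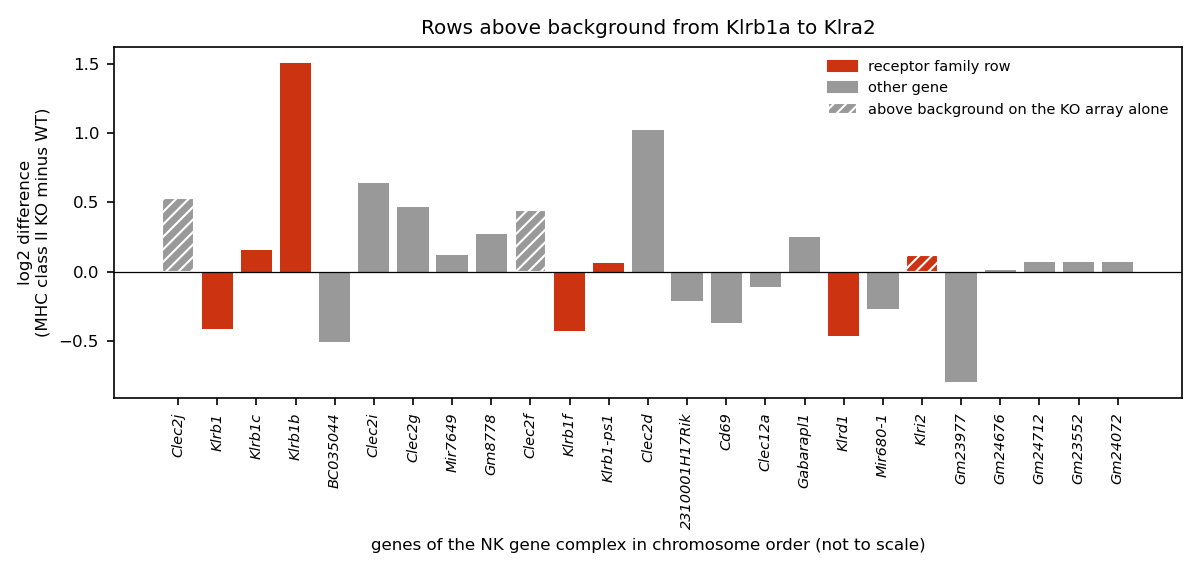
Log2 difference (MHC class II KO minus WT) of the genes above background between Klrb1a and Klra2, in chromosome order and not to scale, with family members in red, other genes in grey and genes above background on the KO array alone hatched. Klrb1b and Clec2d stand highest, and the genes on either side of Klrb1b differ by 0.16 and -0.51.

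Of the adaptor genes Hcst, Tyrobp and Fcer1g, which carry signals of these receptors, Hcst and Tyrobp were above background. Hcst encodes DAP10, the partner of NKG2D, and had log2 signals of 11.60 (WT) and 11.72 (KO), although Klrk1 itself was below background. Tyrobp encodes DAP12, the partner of activating Ly49 receptors, and lay close to background at 5.98 and 6.33. Fcer1g, the adaptor chain of NK1.1, was below background at 4.98 and 4.85. Cd247, the CD3ζ gene, is in the same list and had 11.29 and 11.24. Of 16 adaptor and signalling genes with a row, 13 were above background, with a median difference of 0.16. Of these 13, 1 was at least 2-fold higher and none lower, where 0.825% and 0.793% of all 16009 rows were. That gene was Ptpn6, which encodes SHP-1, the phosphatase recruited by inhibitory receptors of this family. Its log2 signals were 11.94 and 12.95, a difference of 1.01 or 2.01-fold (0.99 after quantile normalization). Sh2d1a, an adaptor gene of SLAM receptors, differed by 0.72 and Vav1, which encodes a signalling exchange factor, by 0.42.

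The MHC class I side, which the Ly49 receptors read, showed small differences of 1 sign. All 7 genes with a row were above background and higher on the KO array, where 56.2% of all rows were. None was higher by 1.5-fold, where 3.97% of all rows were, and the median difference was 0.35. H2-D1 differed by 0.35, H2-K1 by 0.30 and B2m, the light chain gene, by 0.11. The peptide transport and loading genes Tapbp, Tap1 and Tap2 differed by 0.47, 0.43 and 0.37. H2-T23, the Qa-1 gene, had no row with its symbol alone and was not analysed here. Of 9 NKG2D ligand genes only 2, Ulbp1 and H60c, had a row with their symbol alone, so the Raet1 genes, H60a and H60b were not analysed here. Ulbp1 was above background, with 9.43 and 9.61, and H60c was not. None of the 3 cadherin genes listed as KLRG1 ligands was above background.

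Of 14 transcription factor genes linked to the expression of these receptors that had a row, 13 were above background, with a median difference of 0.03. Of these, 1 was at least 2-fold higher, where 0.825% of all 16009 rows were. It was Tbx21, the T-bet gene, with log2 signals of 6.14 and 7.31. Bcl11b differed by 0.66 and Lef1 by -0.51. Among 14 NK receptors outside the family 9 were above background, with a median of 0.00, and 2 were at least 2-fold higher, against the same 0.825%. These were Slamf6 at 1.17 and Cd226, the gene for DNAM-1, at 1.11, followed by Cd96 at 0.90.

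**Figure D4:**
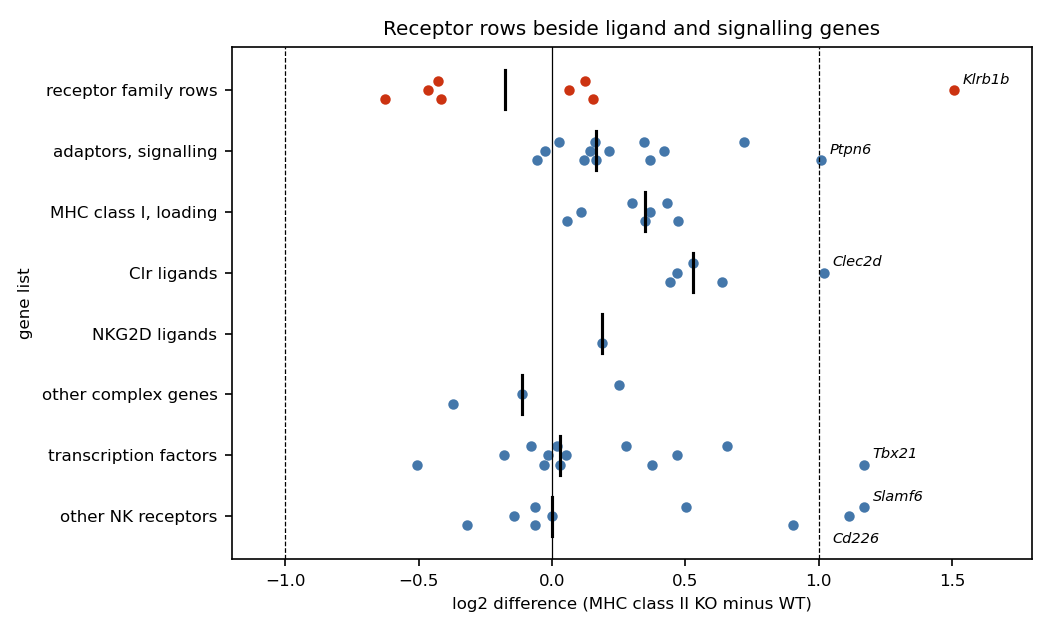
Measured log2 differences (MHC class II KO minus WT) of the 8 family rows above background (red) beside the genes above background in each list of ligands, adaptors, transcription factors and other NK receptors (blue), with the median of each list as a black bar and dashed lines at 2-fold. The 5 Clr ligand genes plotted lie right of 0, Clec2j and Clec2f being above background on the KO array alone. Klrb1b lies apart from the other family rows.

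Marker genes of other cells were measured as well. Of 12 genes with a row that mark double positive and αβ thymocytes, 11 were above background on at least 1 array, 9 of them on both. All 11 had measured differences above 0 (median 0.74), where 56.2% of all 16009 rows did. Of the 11, 3 were at least 2-fold higher (Cd8b1, Aqp11 and, by its bound, Dntt), where 0.825% of all 16009 rows were. At 1.5-fold 7 were higher, where 3.97% of all rows were, and none was lower. Satb1 and Cd1d1 differed by only 0.07 and 0.04. The summed signal of the 12 was 15679 (WT) and 35284 (KO). Most of both sums came from Cd8b1, the CD8 β chain gene, with signals of 10634 and 27602, and without it the sums were 5045 and 7681. Rag2 was below background on both arrays. Dntt and Ptcra were above it on the KO array alone, so they entered only where they were high. The part of such cells in the values of Klrb1b, the Clec2 genes, Ptpn6 and MHC class I was not tested, and a change in the share of cells and in the RNA per cell cannot be told apart. Of 12 dendritic cell and macrophage markers with a row, 3 were above background on at least 1 array, 2 of them on both. All 3 had measured differences above 0, where 56.2% of all 16009 rows did. Cd68 differed by 0.91 and Siglech by only 0.03. The median of 0.37 is the measured value of Lyz2, whose WT value was below background. With that value raised to background, Lyz2 differed by 0.30. Csf1r, Adgre1 and Itgax were below background on both arrays. The summed signal of the 12, those below background included, was 707.2 (WT) and 973.1 (KO). The part of such cells was not tested either. For NK cells and ILC1, 8 of 12 markers were above background, 5 with differences above 0 and 3 below, with a median difference of 0.22 and summed signals of 33732 and 29126. Most of both sums came from Il2rb, with log2 signals of 14.73 and 14.59. The markers Ncr1, Eomes, Prf1 and Cma1 were below background on both arrays. Gzma, Itga2, Xcl1 and Ccl5 were above it on both and differed by 0.31, 0.30, 0.25 and 0.19. Irf8, a transcription factor gene that myeloid cells also use, differed by 1.11, and the granule genes Nkg7 and Gzmb, which T cells also use, by -1.25 and -1.13.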

How the data were processed

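Per the labels, RNA of sorted cells was amplified, and biotin-labelled material was hybridised to GeneChip arrays. RMA and Affymetrix Expression Console 1.4.1 are named in the submitters' processing notes. The build of the platform annotation was not stated. The values the authors deposited are intensities on a linear scale, spanning 6.45 to 480711 (WT) and 6.71 to 487523 (KO). On these arrays 767 and 742 rows pass 65535, the ceiling of a common scanner, and how they were rescaled is not stated, so folds could be wider or narrower than on the original scale.

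Log2 signals and their difference were computed in Python 3.11.15 with pandas 2.3.3. Repeated symbols of a row were merged, and the brightest row stood for a gene of a list. A value under background was raised to it, so such folds are bounds. The steps were tested on simulated data, with changes planted only in rows well above background. Changes in rows near background were not tested in this way. The number of arrays limits the precision, and no test was possible. Of 93 list genes, 16 had no row with their symbol alone. Every family row above background was named, together with up to 3 genes per list, those farthest from 0, and a few fixed ones. Tcf7, among those fixed, was not analysed here. The family and the lists were chosen with earlier results of these data known. Upstream sequences are from RefSeq, and 22 of 28 rows had at least 1.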

Additional observations from a re-analysis of the deposited data

How the results depend on the processing

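Klrb1b differed by 1.47 to 1.51 under the scalings tried, and no family row above background changed sign. Filters and fold thresholds cannot change the difference of a row. With the 99th percentile of olfactory receptor rows as background, 4 family rows (Klrb1f, Klrb1b, Klrd1 and the Klra5 and Klra6 row) were above it, the median difference over both arrays was 0.54, and 39 of all rows with a gene symbol were at least 2-fold lower. With the 90th percentile 12 family rows were above background, with Klrb1a, Klrc1, Klrg1 and Klrk1 added, and the median was -0.11. With no background filter all 28 rows entered, the median was -0.042, and 211 of all rows were at least 2-fold lower. At 1.5-fold 1 family row was lower, and 636 of all rows were higher and 450 lower, beside 132 and 127 at 2-fold. At 3-fold no family row (0) was higher, and 17 of all rows were higher and 46 lower. Without Klrb1b, an alternative chosen after seeing the data, the median was -0.42. The thymocyte sum without Cd8b1, and identical rows of the NK gene complex counted once, were also added after seeing the data. Centring, quantile normalization, a loess correction (fraction 0.3), measured values in place of bounds, rows with 1 symbol, the brightest row of each symbol and identical rows counted once left these counts within 1.5 times, but with rows of 1 symbol only the median went to -0.18. The directions given for the ligand, class I and thymocyte lists held under the 3 scalings, and Clec2d and Ptpn6 were just under 2-fold higher after quantile normalization and loess. No paired analysis was possible because each group has 1 array. Signals near background limit Klrb1-ps1 and Klri2 most.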
